A study of Drosophila melanogaster with 3 samples.

Results

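The genes of the cytosolic small ribosomal subunit were examined for binding of Mastermind (Mam), tagged with GFP, in fly embryos. Members were the protein-coding genes on the main chromosome arms whose symbol begins with RpS and a digit, plus sta (stubarista), which encodes another small subunit protein. The rule used names only and gave 39 genes of 13968 protein-coding genes.

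Anti-GFP chromatin immunoprecipitation with sequencing (ChIP-seq) was carried out on whole Drosophila melanogaster embryos of the mam-MiMIC-GFP strain, aged 0 to 24 h and of both sexes together. In this strain an eGFP exon sits in an intron of mam, so that transcripts of the endogenous gene can encode a Mam-GFP fusion, and chromatin was sonicated to 200 to 800 bp. The series held 1 group with 3 biological replicates, so no condition was contrasted with another and no test between groups was possible. A possible control that the labels name was not analysed here, and in whole embryos a weak peak in many cells and a strong peak in few cells cannot be told apart.

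Each small subunit joins a ribosomal RNA to a fixed set of proteins, decodes the messenger RNA and is needed in every growing cell. Fly ribosomal protein genes are known for the Minute phenotype: heterozygous loss of many of them slows development and thins the bristles. Many of their transcripts begin at a pyrimidine-rich TCT initiator instead of the common initiator, and several small subunit proteins are encoded by pairs of paralogous genes. Mam is the coactivator that binds the Notch intracellular domain on chromatin, where Suppressor of Hairless, abbreviated Su(H), recognises the DNA.

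Peaks are described by the authors' signal value, a height with no stated scaling, and by their place when the peaks of a list are ordered by signal. A reproducible peak is one in the deposited list thresholded by the irreproducible discovery rate (IDR), which held 5326 peaks with signals from 110 to 5297 and a median of 195. These were the 5326 strongest of 24073 pooled peaks. The replicate lists held 30000, 24267 and 24306 peaks with background calls included, so replicates were compared through the strongest 5326 peaks of each. A gene carried a summit when the highest point of a peak lay within 1000 bp of any of its transcription start sites (TSSs).

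Reproducible summits were found at 27 of the 39 small subunit genes (69.2%), against a background of 29.7% of all protein-coding genes (4145 of 13968). In the strongest peaks of replicates 1, 2 and 3, 25, 27 and 27 members carried a summit, which was 64.1%, 69.2% and 69.2% (mean 67.5% ± 2.96, SD, n = 3). The same count over all protein-coding genes gave 28.4%, 29.8% and 30.2% (29.4% ± 0.930). The members' share was thus above the background share in each replicate, by more than the spread between replicates. In the strongest peaks of all 3 replicates, 22 members carried a summit (56.4%), against 23.6% of all genes. The longer pooled list placed a summit at 37 members (94.9%), against 58.9% of all genes.

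The other gene lists lay between these shares or above them. Large subunit genes (RpL) carried a reproducible summit at 43 of 54 (79.6%), with a mean over replicates of 79.0% ± 4.66 (n = 3). Mitochondrial ribosomal protein genes (mRp) reached 40 of 73 (54.8%), and their replicate shares were 41.1%, 58.9% and 56.2%. Of 24 genes for ribosome assembly and ribosomal RNA synthesis, 13 carried one (54.2%). The strongest of those was Ns2 (nucleostemin 2), with a signal of 970 at place 135. Rack1, a small subunit protein outside the naming rule, had a reproducible signal of 231 at place 2113, with its summit 26 bp upstream of a TSS, and stood at places 4795, 1505 and 1531 in replicates 1, 2 and 3.

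**Figure D1:**
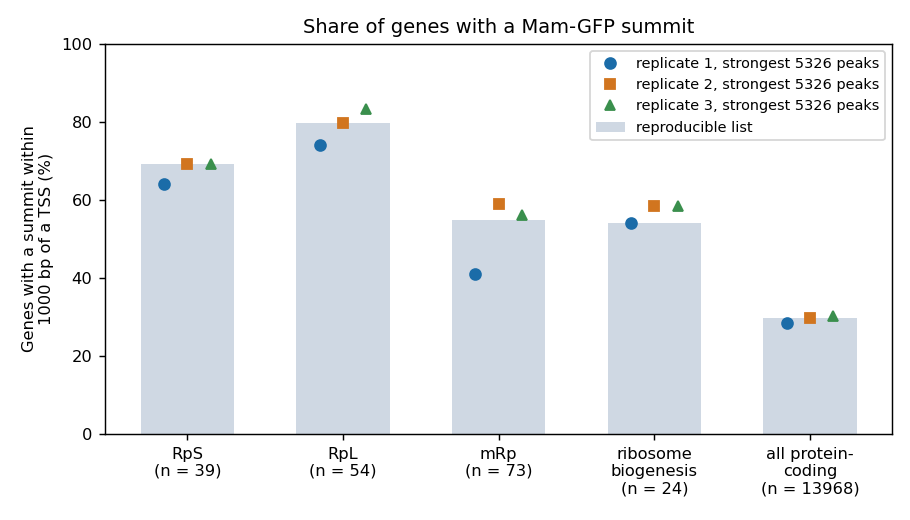
Share of genes with a Mam-GFP summit within 1000 bp of a TSS (%), for 5 gene lists. Bars show the reproducible list and points the 5326 strongest peaks of each replicate: the points for the small subunit genes lie at 64.1%, 69.2% and 69.2%, and those for all protein-coding genes at 28.4%, 29.8% and 30.2%.

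The strength of the members' peaks was near that of other genes with a peak. Their strongest reproducible signals had a median of 286, with quartiles of 163 and 371 and a range of 132 to 1097. All genes with a reproducible summit had a median of 235, RpL genes 304 and mRp genes 217. In the top 10% of the reproducible list stood 3 of the 27 members (11.1%), beside 15.03% of all genes with a summit, and 17 members (63.0%) were among the strongest 2663 peaks, beside 60.9%. Within the list the members thus ran from place 102 to place 4359.

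The peak of RpS27, a zinc-binding subunit protein, was the strongest of the family. It spanned chr3R:25247379-25247701 with a pooled signal of 1097 at place 102, and its replicate signals of 271, 395 and 434 stood at places 196, 95 and 88. RpS20, on the same arm, followed at chr3R:20821811-20822174 with 891 at place 168, and with 262, 324 and 306 in the replicates (places 204, 139 and 173). RpS29, which encodes a small zinc-binding protein, had 573 at place 440, and its replicate signals were 178, 198 and 183 (places 485, 412 and 530). These 3 genes were the highest members in every replicate. The promoters of the leading pair are shown because they carry the strongest signals, on the gene's strand of dm6, from upstream to 12 bp past the TSS. RpS27 lies on the minus strand at chr3R:25247502-25247624, with its summit 24 bp upstream of the TSS, and RpS20 on the plus strand at chr3R:20821982-20822193, with its summit 169 bp upstream.
RpS27: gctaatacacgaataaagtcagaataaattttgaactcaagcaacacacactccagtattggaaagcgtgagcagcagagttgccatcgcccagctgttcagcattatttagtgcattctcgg
RpS20: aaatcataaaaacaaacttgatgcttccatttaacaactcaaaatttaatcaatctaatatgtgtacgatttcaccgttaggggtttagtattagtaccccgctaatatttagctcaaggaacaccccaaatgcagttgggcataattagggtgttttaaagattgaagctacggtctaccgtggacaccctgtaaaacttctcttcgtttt
No base is in capitals, since none of the motifs searched occurs in these stretches. For RpS27, the TSS of the divergent gene Nup37 lay 120 bp from the summit, farther than its own but within the window. For RpS20, the TSS of the divergent gene CG17271 lay 164 bp from the summit, and so about as near as its own.

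A further 7 members made up the 10 with the highest signals. RpS21, whose loss causes overgrowth of the larval blood-forming organs, had a pooled signal of 429 at place 770 and replicate signals of 107, 163 and 158 (places 1244, 588 and 719). RpS12, which is needed for the loss of Minute cells in cell competition, had 409 at place 828, and 121, 146 and 147 in the replicates (places 983, 729 and 820). RpS4 had 394 at place 874, and 95.8, 156 and 161 in the replicates (places 1513, 636 and 688). Replicate 1 ranked all of these lower than replicates 2 and 3 did. RpS5a, a Minute gene, reached 378 at place 940, with 80.0, 145 and 153 in the replicates (places 2027, 733 and 764). The signal of RpS16 was 365 at place 1018, and its replicates gave 89.6, 129 and 140 (places 1687, 931 and 892). RpS28b had 349 at place 1101, with 103, 107 and 147 (places 1330, 1273 and 823). Its replicate 1 value is that of another peak, 785 bp upstream. RpS3A, the member on the small chromosome 4, had 321 at place 1277, with 79.6, 125 and 121 (places 2046, 982 and 1162).

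Replicate 1 gave the last place of the 3 to 17 of the 27 members (63.0%), and to 49.6% of the 4137 genes of the same kind. Replicates 2 and 3 gave the last place to 5 members each. The median place of the 27 members was 2158, 1560 and 1522 in replicates 1, 2 and 3, and that of all these genes was 2266, 2039 and 2019. The part of differences between the libraries in this was not tested.

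**Figure D2:**
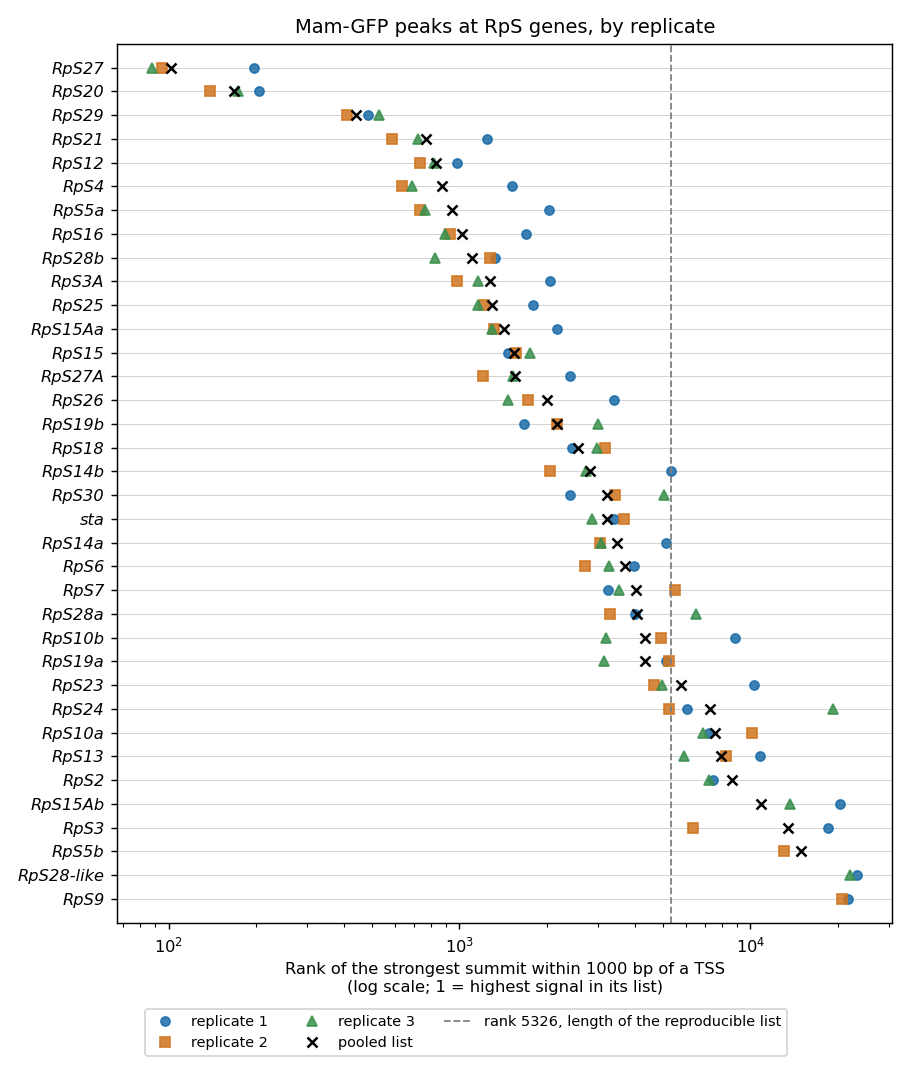
Place of the strongest Mam-GFP summit of each of 36 small subunit genes in each replicate list and in the pooled list (log scale, 1 is the highest signal), with genes ordered by the pooled place. The dashed line marks place 5326, the length of the reproducible list; RpS27 and RpS20 stand between places 88 and 204 throughout, and a missing symbol means no summit in that list.

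The middle of the family held RpS25, RpS15Aa, RpS15, RpS27A, RpS26, RpS19b and RpS18, with pooled signals from 319 down to 201. RpS27A encodes a subunit protein fused to ubiquitin, and had 286 at place 1547, with places 2391, 1206 and 1522 in the replicates. It shares a TSS with Ip259, so its peak cannot be assigned to either gene. RpS26 stood at place 1992, and at places 3396, 1715 and 1474. RpS18 stood at place 2565, and at places 2432, 3161 and 2977. All 7 were among the strongest 5326 peaks of every replicate.

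Lower signals were found at sta, RpS6, RpS30 and RpS7. The gene sta, whose mutants have aristae and antennae of altered form, had a pooled signal of 168 at place 3226, and replicate signals of 56.7, 49.3 and 65.5 (places 3390, 3674 and 2845). RpS6, whose protein is phosphorylated by S6 kinase, had 150 at place 3694, and 50.5, 62.7 and 58.7 in the replicates (places 3989, 2708 and 3254). The RpS6 values of replicates 2 and 3 are those of another peak, 515 bp upstream, while the replicate 1 summit lay 5 bp past the TSS. That other peak lay closer to the TSS of bys, which was 544 bp from the pooled summit. Both sta and RpS6 had a summit inside the strongest 5326 peaks in every replicate. RpS30 had 168 at place 3219, with places 2393, 3427 and 5067. RpS7 had 140 at place 4044. Replicate 2 placed it past 5326, at 5492, while replicates 1 and 3 placed it at 3241 and 3525.

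The lowest reproducible signals belonged to RpS28a, RpS10b and RpS19a. RpS28a had 139 at place 4071, with 50.2, 54.1 and 32.6 in the replicates (places 4019, 3289 and 6500). RpS10b had 132 at place 4343, with 29.1, 38.5 and 59.6 (places 8861, 4923 and 3194). RpS19a had 132 at place 4359, with 42.1, 36.1 and 60.4 (places 5138, 5248 and 3140). Its replicate 1 value is that of another peak, 17 bp upstream, while the reproducible summit lay 449 bp upstream. For RpS28a replicate 3 gave the last place, and for RpS10b replicate 1. Of the 27 members, 22 had a summit among the strongest 5326 peaks in all 3 replicates and 5 in 2 of them, which included RpS14b, RpS7, RpS28a and RpS10b. The count takes any summit within the window, so the peak need not be the same in each replicate, as at RpS19a.

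Without replicate 1, 24 members kept a reproducible summit, and RpS28a and RpS7 were among those that lost it. Without replicate 2, RpS10b, RpS14b, RpS19a and RpS28a lost it, which left 23. Without replicate 3, 22 were left, and RpS10b, RpS14b, RpS19a and RpS7 were among those lost. In each case a peak had to be overlapped by the strongest peaks of both other replicates.

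No reproducible summit lay at 12 members, and 10 of these had one in the pooled list. RpS23 was nearest to the limit, with a pooled signal of 103 at place 5781 and replicate signals of 26.7, 40.5 and 41.3 (places 10252, 4681 and 4965). RpS24 had 83.3 at place 7291, and 37.4, 36.0 and 15.8 (places 6057, 5268 and 19159). The replicate 3 value is that of another peak, 861 bp past the TSS, while the other summits of RpS24 lay within 36 bp. RpS23 was thus among the strongest 5326 peaks in replicates 2 and 3, and RpS24 in replicate 2. RpS13, another Minute gene, had 77.0 at place 7942, and 25.9, 23.7 and 35.5 (places 10756, 8239 and 5913). Its replicate 1 summit lay 4 bp upstream of a TSS and the others 154 to 171 bp upstream. The pooled summit of RpS13 lay 22 bp from the TSS of CSN8, and so nearer to that gene. RpS2, known from its mutant string of pearls with arrested egg chambers, had 71.3 at place 8667, 32.5 in replicate 1 and 30.01 in replicate 3 (places 7434 and 7179). No peak of the replicate 2 list lay at RpS2.

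Among the faintest was RpS3, a classical Minute gene. Its pooled signal was 50.6 at place 13418, with 19.1 in replicate 1, 30.3 in replicate 2 (places 18498 and 6354) and no peak in replicate 3. RpS9 had no pooled peak, and was listed with 17.5 in replicate 1 and 12.99 in replicate 2 (places 21628 and 20706). RpS28-like, a gene named for its likeness to RpS28, had no pooled peak either, and was listed with 16.7 in replicate 1 and 14.6 in replicate 3 (places 23292 and 21950). The lowest signals in the replicate lists were 14.3, 11.9 and 13.8, so the values at RpS9 and RpS28-like were among the lower ones of those lists. The promoter of RpS3 is shown as that of a gene with no reproducible summit. It lies on the plus strand of dm6 at chr3R:23358702-23358824, from 110 bp upstream to 12 bp past the TSS.
RpS3: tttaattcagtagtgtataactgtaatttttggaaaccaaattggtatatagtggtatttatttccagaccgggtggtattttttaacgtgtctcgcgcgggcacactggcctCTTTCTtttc
Capitals mark the TCT initiator, CTTTNT, whose C lies 3 bp past the TSS.

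The strongest reproducible summits of small subunit genes sat close to the TSS. That summit stood no more than 100 bp from a TSS at 22 of 27 members (81.5%), beside 36.9% of all genes with a summit. RpL genes gave 35 of 43 (81.4%) and mRp genes 15 of 40 (37.5%). The median distance was 50 bp for the members, 49 bp for RpL genes, 128.5 bp for mRp genes and 147 bp for all genes with a summit. In the replicates' strongest peaks the members' medians were 47, 64 and 51 bp, and those of all genes 153, 150 and 146 bp. Upstream of the TSS lay 23 of the 27 summits (85.2%), much as for all genes with a summit (85.5%), 3 lay downstream, and that of RpS15Aa fell on a TSS. In the 100 bp just upstream lay 66.7% of the members' summits and 30.8% of those of all genes with a summit.

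**Figure D3:**
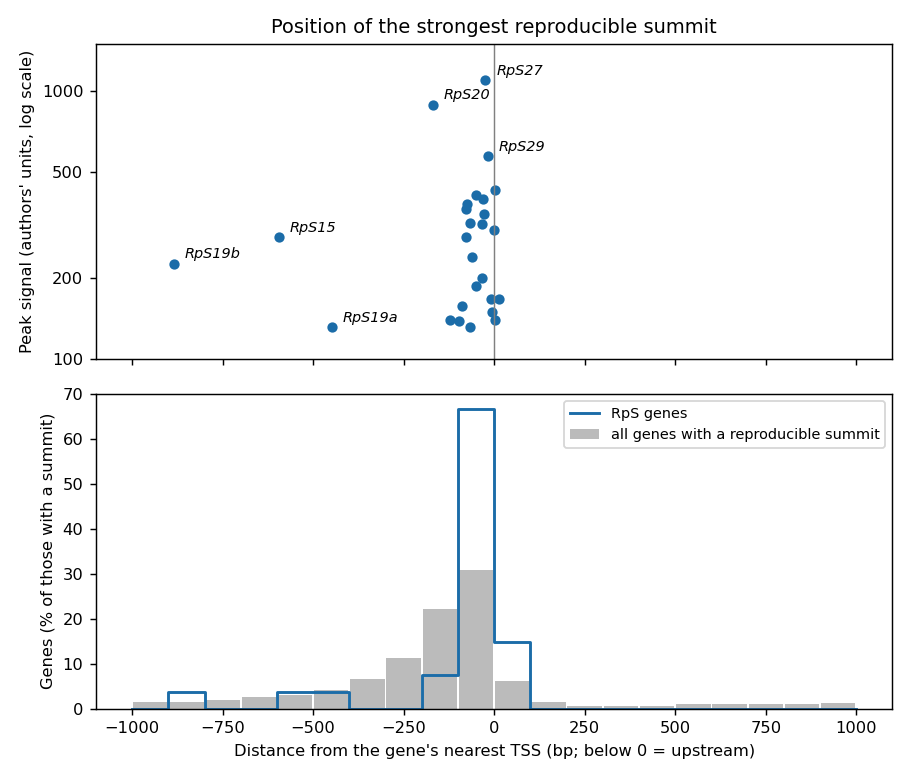
Above, signal (authors' units, log scale) of the strongest reproducible peak of each of 27 small subunit genes against the distance of its summit from the nearest TSS of the gene (bp). Below, share of genes per 100 bp of distance (%), with 66.7% of small subunit genes (line) and 30.8% of all genes with a reproducible summit (grey bars) in the 100 bp upstream.

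Of the 27 members, 4 had a summit nearer to the TSS of another gene, and in 23 (85.2%) the nearest TSS was their own. The same held for 34 of 43 RpL genes (79.1%), for 68.1% of all genes with a summit and for 45.0% of mRp genes. Ties counted as own, as for RpS27A, which shares with Ip259 the TSS 77 bp from its summit. At RpS28a the own TSS lay 96 bp away and that of Axn 98 bp. Of the 4 with a nearer gene, RpS19a had its summit 449 bp upstream and 31 bp from the TSS of Rok. For RpS15 the distances were 594 bp and 258 bp to CG4927. RpS19b was the farthest, with 884 bp against 502 bp to CG5854, and for RpS20 the distances were 169 bp and 164 bp to CG17271. In replicate 1 the strongest summit at RpS19a lay 17 bp upstream of its own TSS, and in replicates 2 and 3 449 and 451 bp upstream. A TSS of another gene lay within 1000 bp of the summit at 19 of the 27 members (70.4%), beside 64.1% of all genes with a summit.

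At 4 members, 2 reproducible summits lay within the window, so the family held 31 reproducible summits in all. At RpS28b they had signals of 349 and 320 and lay 27 bp and 788 bp upstream. The TSS of the divergent gene l(1)G0320 lay 846 bp from the near summit, so the far summit lay closer to that gene. Replicate 1 ranked the far one first and replicates 2 and 3 the near one. At RpS6 they had 150 and 134 and lay 5 bp and 514 bp upstream, toward the divergent gene bys, which encodes bystin, a factor for small subunit assembly. The TSS of bys lay 544 bp from the near summit, so the far summit of RpS6 lay closer to bys. Here replicates 2 and 3 gave the far summit the higher signal and replicate 1 the near one. RpS5a had a further summit of 189 at 278 bp upstream, and RpS14b one of 115 at 728 bp past the nearest of its TSSs. That of RpS14b lay beyond the end of the gene. The TSS of Ubr3 lay 1047 bp from the near summit of RpS14b, so the far summit lay closer to Ubr3. The deposited peaks were 396 bp wide in most cases, and 14 of the 27 members (51.9%) had a narrower strongest peak, beside 53.5% of RpL genes and 37.1% of all genes with a summit.

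The 6 pairs of paralogous genes were compared gene by gene. In 3 pairs both genes carried a reproducible summit (RpS14a with RpS14b, RpS19a with RpS19b, and RpS28b with RpS28a), and in 3 pairs only the X-linked gene did (RpS5a, RpS10b and RpS15Aa). RpS5b, known as the ovary-enriched copy, had a pooled signal of 47.0 at place 14950, set against 378 for RpS5a. Its only replicate peak had 17.1 at place 13017 in replicate 2. RpS10a had a pooled signal of 80.4 at place 7568, with 33.1, 20.2 and 31.0 in the replicates (places 7208, 10135 and 6884), set against 132 for RpS10b. RpS15Aa had 304 at place 1418, with 76.7, 105 and 113 (places 2158, 1314 and 1296). Its partner RpS15Ab had 58.8 at place 10911, with 18.1 in replicate 1, 19.1 in replicate 3 (places 20392 and 13698) and no peak in replicate 2. The pooled summit of RpS15Ab lay 1 bp from the TSS of Lsm10 and 35 bp from its own. RpS15Aa ranked above RpS15Ab in every replicate, and RpS5a above RpS5b. RpS10b ranked above RpS10a in replicates 2 and 3 and below it in replicate 1.

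RpS19b, known for its germline expression, had a higher pooled signal than RpS19a. It had 227 at place 2171, with 90.2, 74.8 and 62.6 in the replicates (places 1672, 2172 and 3005). Both summits lay nearer to another gene's TSS, as given above, so neither signal can be assigned to an RpS19 promoter. RpS28b ranked above RpS28a in every replicate, in replicate 1 through a peak 785 bp upstream. That peak lay closer to the TSS of l(1)G0320, so the order of the pair's promoters in replicate 1 is not shown.

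The tandem genes RpS14a and RpS14b encode the same subunit protein and lie next to each other on the X chromosome. RpS14b had a pooled signal of 187 at place 2815, with 41.0, 78.0 and 67.9 in the replicates (places 5343, 2045 and 2716). RpS14a had 158 at place 3470, with 42.2, 57.6 and 61.5 (places 5119, 3032 and 3072). RpS14b ranked above its neighbour in replicates 2 and 3 and below it in replicate 1, so their order did not hold in every replicate. Their coding sequences were 97.8% identical and the 201 bp around their TSSs 55.9%. For RpS15Aa and RpS15Ab these values were 98.2% and 53.4%, and coding identity in the other pairs ran from 69.2% to 78.9%. The sources used here do not say how the authors treated reads that match several places. The promoters of the tandem pair are shown to make that difference visible, on the plus strand of dm6 at chrX:7933632-7933754 and chrX:7934788-7934910, with the TSS 12 bp before the end.
RpS14a: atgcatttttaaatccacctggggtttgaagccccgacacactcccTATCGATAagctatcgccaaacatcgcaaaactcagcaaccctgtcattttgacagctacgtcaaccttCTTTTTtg
RpS14b: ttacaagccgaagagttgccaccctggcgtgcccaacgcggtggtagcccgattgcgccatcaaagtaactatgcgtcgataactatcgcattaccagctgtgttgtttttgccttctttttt
Capitals in RpS14a mark the DNA replication-related element (DRE), TATCGATA, at 64 bp upstream of the TSS, and a TCT initiator whose C lies 5 bp past it. The RpS14b stretch holds no DRE. It holds the letters CTTTTT near its end, which begin just beyond the 5 bp limit of the search and so were not counted. The summits lay 89 bp and 49 bp upstream.

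Of the motifs searched within 100 bp of the summits, on both strands, the DRE was the most frequent at small subunit genes. This element, bound by the factor DREF, is a common core promoter sequence of fly growth genes. It lay at 9 of 27 members (33.3%), RpS29, RpS12, RpS25, RpS15Aa, RpS30, RpS14a, RpS6, RpS7 and RpS10b, beside 12 of 43 RpL genes (27.9%) and 10.7% of all genes with a summit. Its distance to the summit ran from 4.5 bp at RpS15Aa to 84.5 bp at RpS7, counted from the centre of the element. The reversed letters lay at no member and at 0.917% of all genes with a summit. Members with the DRE had a median signal of 168 (132 to 573) and those without it 286 (132 to 1097), so the ranges overlapped. Around the TSS of the canonical transcript, the DRE lay in 10 of the 27 members with a reproducible summit (37.0%), in 3 of the 12 without (25%) and in 7.50% of all protein-coding promoters. A match describes letters only and shows no bound factor.

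The promoters of 5 members with the DRE are shown on the gene's strand of dm6, from 110 bp upstream to 12 bp past the TSS nearest to the summit. They include those with the DRE nearest to the summit, so they do not stand for all members with the DRE. RpS12 lies on the plus strand at chr3L:13023242-13023364, RpS25 on the minus strand at chr3R:11216275-11216397, RpS15Aa on the minus strand at chrX:13337693-13337815, RpS6 on the minus strand at chrX:7901319-7901441 and RpS10b on the plus strand at chrX:19597921-19598043.
RpS12: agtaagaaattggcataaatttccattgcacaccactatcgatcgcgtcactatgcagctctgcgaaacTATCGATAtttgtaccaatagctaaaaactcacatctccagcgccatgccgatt
RpS25: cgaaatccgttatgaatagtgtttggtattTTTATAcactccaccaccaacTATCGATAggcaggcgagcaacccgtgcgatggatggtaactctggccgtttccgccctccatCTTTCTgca
RpS15Aa: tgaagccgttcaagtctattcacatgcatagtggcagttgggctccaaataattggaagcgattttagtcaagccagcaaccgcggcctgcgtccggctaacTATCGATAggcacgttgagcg
RpS6: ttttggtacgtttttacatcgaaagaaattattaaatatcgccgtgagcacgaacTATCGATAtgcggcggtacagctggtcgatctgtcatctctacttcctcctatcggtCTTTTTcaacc
RpS10b: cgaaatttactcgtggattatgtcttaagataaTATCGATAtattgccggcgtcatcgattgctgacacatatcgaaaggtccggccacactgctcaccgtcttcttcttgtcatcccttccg
Capitals mark the DRE in all 5, and in RpS25 also TATAAA on the other strand and a TCT initiator, and in RpS6 a TCT initiator. The first base of the DRE lay 41 bp upstream of the TSS in RpS12, 59 in RpS25, 8 in RpS15Aa, 55 in RpS6 and 77 in RpS10b. The summits of these genes lay 50, 33, 0, 5 and 68 bp upstream, so the centre of the element and the summit were 12.5, 22.5, 4.5, 46.5 and 5.5 bp apart. At the other members with the DRE they were 28.5 bp apart at RpS14a, 36.5 at RpS29, 72.5 at RpS30 and 84.5 at RpS7.

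The Su(H) motif, searched as GTGGGAA or GTGAGAA, lay at 1 member, RpS16 (3.70%), beside 4 RpL genes (9.30%) and 5.31% of all genes with a summit. The E-box CACGTG, which Myc and its partner Max bind, lay at 1 member, RpS28b, beside 6 RpL genes (14.0%) and 3.11% of all genes with a summit. GGTCACAC, the core of the motif of the factor M1BP, lay at no member's summit, at 6 RpL genes and at 5.62% of all genes with a summit. TATAAA lay at 4 members (14.8%), RpS27, RpS3A, RpS25 and RpS27A, beside 30.2% of RpL genes and 31.1% of all genes with a summit. Neither GAGAGAG nor CAGGTAG, the motifs of GAGA factor and Zelda, was found at a member, and 2.85% and 0.651% of all genes with a summit held them. In protein-coding promoters at large, the shares were 4.27% for Su(H), 2.91% for the E-box, 6.51% for GGTCACAC, 28.9% for TATAAA, 3.92% for GAGAGAG and 1.06% for CAGGTAG. Among 27 members, 1 gene makes up 3.70%, so differences of this size are not resolved.

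**Figure D4:**
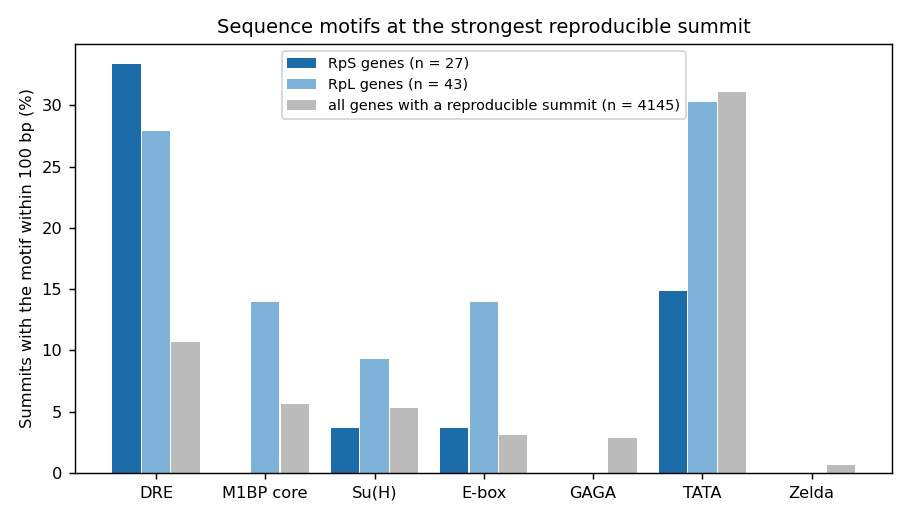
Share of strongest reproducible summits (%) with each motif within 100 bp, for 27 small subunit genes, 43 RpL genes and all 4145 genes with a reproducible summit. The DRE lay at 33.3%, 27.9% and 10.7% of these, and TATAAA at 14.8%, 30.2% and 31.1%.

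A TCT initiator, CTTTNT on the gene's strand with its C within 5 bp of any annotated TSS, was found in 16 of the 39 small subunit genes (41.0%). RpL genes held it in 15 of 54 (27.8%), mRp genes in 2 of 73 (2.74%), and all protein-coding genes in 2.12%. Members with a reproducible summit held it in 12 of 27 (44.4%) and members without in 4 of 12 (33.3%). RpS3, RpS9, RpS5b and RpS24 were the 4 members with a TCT initiator and no reproducible summit. These counts depend on the limit of 5 bp, and RpS14b, with CTTTTT just beyond it, was not counted. Other limits were not tested.

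Base composition differed between members with and without a reproducible summit. The median share of G and C in the 201 bp around the members' summits was 45.8%, beside 41.8% for RpL genes and 36.8% for all genes with a summit. In the same window around the canonical TSS it was 45.3% for the 27 members with a reproducible summit and 37.3% for the 12 without, beside 41.3% for all protein-coding promoters. The part of base composition in the calls was not tested.

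By chromosome, all 9 X-linked members carried a reproducible summit, as did 9 of 12 on 3R, 3 of 6 on 2L, 3 of 7 on 2R, 2 of 4 on 3L and the 1 member on chromosome 4. Over all protein-coding genes the shares on these arms ran from 27.02% on 2L to 35% on chromosome 4, with 31.5% on the X. No member and no reproducible summit at a protein-coding gene lay on the Y. Of the 13 members that hold annotated small nucleolar RNA genes inside their bounds, 11 carried a reproducible summit (84.6%), with a median signal of 365, beside 61 of all 84 protein-coding genes that host such RNAs (72.6%). Among these were RpS5a and RpS7, the hosts of 14 and 7 such RNAs. Of the other 26 members, 16 carried one (61.5%), with a median signal of 234, beside 29.4% of all protein-coding genes that host none. A gene with several annotated TSSs offers more windows for a summit, and 20 of the 39 members (51.3%) had several, beside 26.5% of all protein-coding genes. Members with several TSSs carried a reproducible summit in 16 of 20 cases (80%), beside 46.9% of all such genes. Members with a single TSS carried one in 11 of 19 (57.9%), beside 23.5% of all such genes. The members' share was thus the higher in both classes.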

How the data were processed

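Mam-GFP ChIP-seq peaks of 3 biological replicates of whole embryos were analysed from 5 deposited peak lists in dm6 coordinates; lists in dm3 were not used. Column 7 holds a signal (peak height) that the authors deposited, with no scaling stated. Per the deposited notes the replicate and pooled lists contain peaks and background as input for IDR. The names of aligner and caller and the IDR threshold were not given in the sources used here. Peak lists give no read numbers, so the depth of each replicate is unknown and no intervals from counts are given.

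Genes and TSSs (19630 for 13968 protein-coding genes) came from Ensembl 115 (BDGP6.54), and sequences from the Release 6 FASTA, the dm6 assembly. No peak ended beyond its arm. Summits within 1000 bp of any TSS were assigned to each gene, and the strongest was used. Signals were compared within a list only. The TCT initiator was looked for at any annotated TSS, and other motifs in the 201 bp around summits and canonical TSSs. Python 3.11.15, numpy 2.4.6, pandas 2.3.3 and Biopython 1.88 (coding and promoter alignments) were used, and assignment and motif search were tested on simulated data.

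With 1 group no test was made: members are set beside all protein-coding genes. Members, lists and motifs were chosen with earlier results of these data known. Values in every list are given for the 10 members with the highest and the 3 with the lowest reproducible signal, for the paralogue pairs and RpS28-like, for RpS3, RpS6, RpS12, RpS13, RpS21 and sta, and for members with no reproducible summit. The single values of 3 members, which remain in all counts and medians, are not reported here. Alternatives were other windows, TSS rules, lists and motif windows, and leaving out each replicate.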

Additional observations from a re-analysis of the deposited data

How the results depend on the processing

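The count of 27 members with a reproducible summit was 24, 25 and 32 with windows of 200, 500 and 2000 bp, 23 with the nearest gene only, 21 where the peak had to overlap a TSS, and 37 in the pooled list. Among the strongest 2663 peaks it was 17, from a list shorter by construction. Leaving out a replicate gave 22 to 24 members and median signals of 295 to 312. The count of 22 members in all 3 replicates was 33 in the whole lists (84.6%, beside 46.9% of all protein-coding genes) and 20 within 500 bp. Apart from the pooled and whole lists, these counts were not repeated over all protein-coding genes. Whether the members' share stayed above the background under those other settings was thus not tested. The median distance rose from 50 to 67 bp with the canonical TSS alone, which leaves fewer TSSs. With 200 bp on either side of the summit, GGTCACAC lay at 1 member, Su(H) motifs at 2, the E-box at 2, the DRE at 10 and TATAAA at 15. In this wider window TATAAA and not the DRE was thus the most frequent. With 50 bp the DRE lay at 7, TATAAA at 3 and the E-box at 0. Reversed letters lay at 0 members for the DRE, the E-box, GGTCACAC and GAGAGAG, 7 for TATAAA and 1 for Zelda. For Su(H) they lay at 1 member, as many as the forward letters. Over all genes with a summit, reversed letters lay at 3.38% for Su(H) and 48.3% for TATAAA. The cause was not tested. The signal of a single gene is always the deposited value of its peak, so leaving out a replicate cannot change it; with the window of 2000 bp, RpS14a took 187, the value of RpS14b. No paired analysis was possible because the series holds 1 group. Read depth is unknown, so a missing peak is not shown to be missing binding.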
